A study of Mus musculus with 2 samples.

Results

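The RNAs of 10 genes that mark macrophages and microglia (Lyz2, Ctss, Spp1, Cd74, C1qa, C1qb, C1qc, Tyrobp, Gpnmb and Fcer1g) were read in single-cell barcodes typed as oligodendrocyte lineage cells from uninjured and injured mouse optic nerve. These 10 of the 31053 genes in the tables were chosen by their UMIs in the injured and uninjured barcodes of these same tables, so their levels here are a description and carry no test. Optic nerve cells were profiled by droplet single-cell RNA-seq, 10x Genomics v2 chemistry, with 1 library from 5 uninjured nerves and 1 library from 5 nerves taken 2 weeks after optic nerve crush (ONC), in which the nerve is pinched behind the eye and its axons are broken. Both libraries came from Wildtype mice of strain 129S1/SvlmJ, pooled male and female, with tissue taken at the crush site or the matching region of an uninjured nerve. By the design text the mice had ONC at 8 weeks and were 10 weeks old at collection. The labels of both libraries instead state 56 days of age and the treatment "2 weeks after crush", so the uninjured group was taken from its sample title. The tables held 959 uninjured barcodes, of which 857 were typed as oligodendrocytes, 44 as newly formed oligodendrocytes (NFOs) and 58 as oligodendrocyte progenitor cells (OPCs). They held 410 injured barcodes, with 293 oligodendrocytes, 100 NFOs and 17 OPCs. Barcodes of immune cells and empty droplets are not analysed here.

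Microglia are the resident phagocytes of the optic nerve, and blood-borne macrophages join them at a crush site to clear myelin and dead cells. Their RNA is rich in a small set of very abundant transcripts, for lysosomal and antibacterial enzymes, complement, antigen presentation and the short adaptor proteins through which their surface receptors signal. Cells of the oligodendrocyte lineage make myelin and are not known as a main source of these transcripts. In droplet sequencing each captured molecule carries a unique molecular identifier (UMI), a barcode stands for a droplet, and RNA free in the cell suspension enters droplets together with the cell.

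The annotated genes lie on separate chromosomes apart from the C1q chains, which sit side by side on the minus strand (C1qb at chr4:136880129-136886187, C1qc at chr4:136889804-136893065 and C1qa at chr4:136895917-136898803, GRCm38). The stretch before the start site is shown for 4 genes whose levels moved together and for Gpnmb, whose pattern differed among the barcode types. These are RefSeq sequences of GRCm38.p6, at most 250 bases long and trimmed to end before the annotated transcript, read 5′ to 3′ along the strand of the gene. Capitals mark AGGAAGT or its reverse complement ACTTCCT, a core of the letters bound by ETS-family factors, among them PU.1, the factor that specifies macrophages. A window was available for 7 of the 10 genes, and the letters were found in 4 of them, which are the 4 printed beside Gpnmb. The letters were chosen after the sequences had been seen, and 7.69% of all 32851 windows of 250 bases before a start site hold them on either strand.
Lyz2 (chr10:117282322-117282522, minus strand): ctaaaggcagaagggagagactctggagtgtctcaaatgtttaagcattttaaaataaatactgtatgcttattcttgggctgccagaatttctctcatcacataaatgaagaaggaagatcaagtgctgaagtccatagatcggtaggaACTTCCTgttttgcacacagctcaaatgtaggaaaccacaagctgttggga
Spp1 (chr5:104434861-104435110, plus strand): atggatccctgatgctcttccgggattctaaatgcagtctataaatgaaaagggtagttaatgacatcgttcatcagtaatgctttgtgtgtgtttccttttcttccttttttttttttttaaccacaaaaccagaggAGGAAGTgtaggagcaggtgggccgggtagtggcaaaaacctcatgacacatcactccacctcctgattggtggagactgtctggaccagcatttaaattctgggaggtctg
C1qb (chr4:136886201-136886450, minus strand): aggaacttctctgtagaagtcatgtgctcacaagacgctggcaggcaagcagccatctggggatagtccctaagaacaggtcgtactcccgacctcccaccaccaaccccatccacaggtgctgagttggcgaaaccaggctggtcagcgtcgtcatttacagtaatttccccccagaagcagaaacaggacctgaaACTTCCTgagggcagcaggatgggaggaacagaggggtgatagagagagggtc
C1qc (chr4:136893066-136893164, minus strand): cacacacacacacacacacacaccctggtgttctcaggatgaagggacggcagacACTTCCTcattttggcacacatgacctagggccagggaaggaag
Gpnmb (chr6:49036268-49036517, plus strand): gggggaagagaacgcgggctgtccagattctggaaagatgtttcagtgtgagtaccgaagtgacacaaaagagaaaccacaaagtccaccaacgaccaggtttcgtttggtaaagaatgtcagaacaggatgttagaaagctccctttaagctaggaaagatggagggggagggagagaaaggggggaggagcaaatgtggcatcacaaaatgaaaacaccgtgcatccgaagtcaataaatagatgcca
The match stood 44 bases from the end of the window in Lyz2, 105 in Spp1, 46 in C1qb and 37 in C1qc. Such a match is a description of the letters and not a binding site. No match was found in the windows of Gpnmb, Ctss and Fcer1g, which says only that these letters are not in them.

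The deposited values were turned back into UMIs, which came out whole within 0.001 in 100% of the barcodes, and summed to 4414834 UMIs in the uninjured and 2771797 in the injured library. No barcode sequence was shared between the libraries. The barcodes carried the transcripts of their types, since Fyn, the kinase of NFOs, had 749 of its 913 injured UMIs in NFO barcodes, and Pdgfra, the growth factor receptor of OPCs, had 113 of its 131 injured UMIs in the 17 OPC barcodes. Injured oligodendrocytes had a median of 1268 UMIs and uninjured ones 3060, NFOs had 1258.5 and 1259.5, and OPCs had 4120 and 2290. The injured oligodendrocytes were divided by Malat1, an RNA kept in the nucleus, into classes that differed in median depth but overlapped in range. In 133 of these oligodendrocytes Malat1 made up less than 0.5% of the UMIs, called Malat1-poor here. Their median depth was 774 UMIs (range 502 to 3389), against 9803.5 UMIs (502 to 58568) in the other 160. NFOs were not divided and were low in Malat1 too, with a median of 0.112% of UMIs in injured and 0.154% in uninjured ones. Injured OPCs had a median of 4.33%. With 1 library per condition there was no replicate check and no p-value can be given. Intervals below are exact 95% intervals that cover counting error only, and within a class the summed counts varied more between barcodes than counting alone gives, with a variance over mean of 2.55 in injured oligodendrocytes.

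The 10 RNAs were found throughout the injured library and rarely in the uninjured one. Their sum was 2.68 UMIs per barcode (2.49 to 2.87) in injured oligodendrocytes, from 784 UMIs, and 0.0793 (0.0616 to 0.101) in uninjured oligodendrocytes, from 68 UMIs. Scaled to all UMIs of the class as CPM, counts per 1000000 UMIs, the sum was 341 CPM in the injured and 16.4 CPM in the uninjured, a ratio of 20.8 (16.2 to 27.0). The injured level was the higher on both scales, in the libraries by which the genes were chosen. All 10 genes had a CPM ratio of at least 2. Of the 7 genes with at least 50 UMIs summed over both classes, 7 were at least 2-fold higher, where 5.98% of all 8591 genes past that minimum were. The median CPM ratio of those 7 genes was 18.0 and that of all genes was 1.03. Because the genes were chosen in this contrast, nothing further is read from the count.

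**Figure D1:**
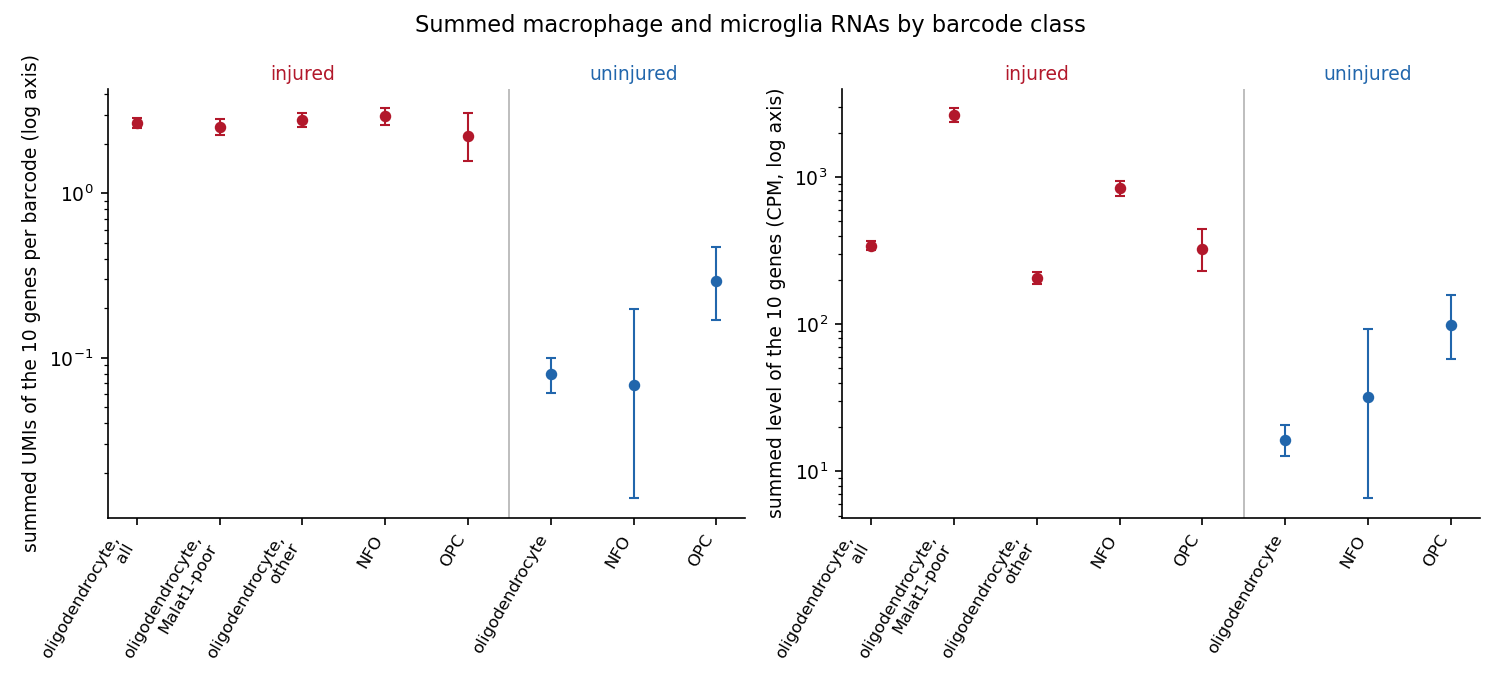
Summed level of the 10 RNAs in each class of barcodes, as UMIs per barcode (left) and as CPM (right), both on log axes, with exact 95% counting intervals and injured classes in red and uninjured classes in blue. Injured classes lie between 2.24 and 2.94 UMIs per barcode, whereas their CPM spreads from 205 to 2638.

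Among the enzymes, Lyz2, the lysozyme of macrophages that breaks bacterial walls, had 134 UMIs in the injured oligodendrocytes and 5 in the uninjured ones. That is 58.2 against 1.21 CPM, a ratio of 48.3 (20.2 to 151). Within the last 500 bases of their transcripts, Lyz2 and its neighbour Lyz1 are identical at 97.4% of the 495 aligned bases. Lyz1 had 1 UMI in each library, and whether reads that match both genes altered the level of Lyz2 was not tested. Ctss, cathepsin S, the lysosomal protease that prepares antigens for display, had 135 injured and 20 uninjured UMIs, 58.6 against 4.82 CPM and a ratio of 12.2 (7.57 to 20.5). In the uninjured library 9 of those 20 Ctss UMIs were in 1 barcode, and all other uninjured oligodendrocytes together held 11.

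Spp1, which encodes the secreted phosphoprotein osteopontin, was the one gene of the 10 with no UMI in any uninjured barcode. It had 135 UMIs in injured oligodendrocytes, 58.6 CPM, and was at least 81.1-fold higher there, taking 3 UMIs as the uninjured floor. No uninjured oligodendrocyte of 857 held a Spp1 UMI, which allows a share of barcodes with a UMI of up to 0.350% by a floor of 3 barcodes, against 31.4% of the injured ones, which were the shallower (medians of 3060 and 1268 UMIs). The 3 chains of C1q, which start the classical complement pathway, were present together. C1qa had 63 injured and 12 uninjured UMIs, a CPM ratio of 9.46 (5.06 to 19.3). C1qb had 93 and 9, a ratio of 18.6 (9.40 to 42.0), and C1qc had 50 and 5, a ratio of 18.0 (7.23 to 57.9). These 3 ratios had overlapping intervals.

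Cd74, the invariant chain that escorts MHC class II proteins, was the lowest of the 10 in injured oligodendrocytes, with 23 UMIs against 4 and 9.99 against 0.964 CPM, a ratio of 10.4 (3.54 to 41.2). Tyrobp, the adaptor DAP12 that carries the signal of TREM2 and related receptors, had 71 UMIs against 8, a ratio of 16.0 (7.69 to 38.5). Fcer1g, the common gamma chain of Fc receptors, had 39 against 2, a ratio of 35.1 (9.10 to 300.4). Gpnmb, a membrane glycoprotein of phagocytes that take up lipid, had 41 against 3, a ratio of 24.6 (7.86 to 124). In level within injured oligodendrocytes, Lyz2, Ctss and Spp1 could not be told apart at 0.457 to 0.461 UMIs per barcode. C1qb followed at 0.317 and Tyrobp, C1qa, C1qc, Gpnmb, Fcer1g and Cd74 followed at 0.242, 0.215, 0.171, 0.140, 0.133 and 0.0785. Each gene in that order overlapped the next in its interval. These levels count the 3′ end of a molecule once and are not scaled by transcript length.

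**Figure D2:**
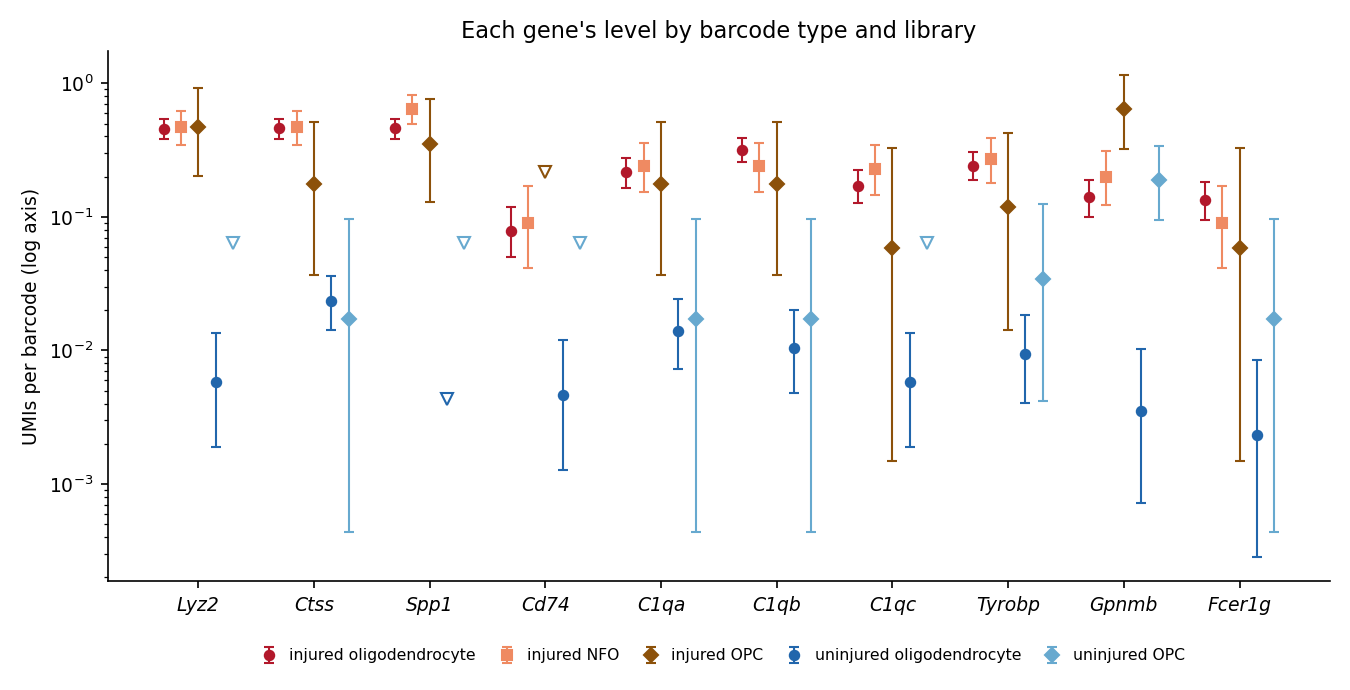
UMIs per barcode (log axis) of each RNA in injured oligodendrocytes, NFOs and OPCs and in uninjured oligodendrocytes and OPCs, with exact 95% counting intervals, where an open triangle stands at the upper limit of a class with 0 UMIs. Injured types overlap for 9 genes, and Gpnmb is higher in OPCs than in oligodendrocytes of both libraries.

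Within the injured library the summed level per barcode was of like size in the 3 types, with Gpnmb and the sum of the other 9 genes differing in opposite directions in OPCs. The sum was 2.94 UMIs per barcode (2.61 to 3.30) in NFOs and 2.24 (1.58 to 3.07) in OPCs, beside the 2.68 of oligodendrocytes. Over the 9 genes other than Gpnmb, oligodendrocytes had 1.60 (1.09 to 2.44) and NFOs 1.73 (1.16 to 2.67) times the UMIs per barcode of OPCs, which held 27 such UMIs. At least 1 UMI of the 10 was found in 84.0% of oligodendrocytes, 86.0% of NFOs and 88.2% of OPCs, at median depths of 1268, 1258.5 and 4120 UMIs. These unthinned shares are not on a like footing, as the 17 OPCs were the deeper and their share includes Gpnmb. Thinned to 500 UMIs per barcode, the shares were 40.3% (34.6 to 46.1) of oligodendrocytes, 55.0% (44.7 to 65.0) of NFOs and 35.3% (14.2 to 61.7) of the 17 OPCs. In the uninjured library the unthinned shares were 5.72%, 6.82% and 15.5%, at 3060, 1259.5 and 2290 UMIs. Whether the UMIs came from RNA outside or inside the cell in the droplet was not tested.

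On the CPM scale the same injured types stood apart, at 341 CPM in oligodendrocytes, 836 in NFOs and 323 in OPCs. The ratio of oligodendrocytes to NFOs was 0.408 (0.356 to 0.468) in CPM and 0.910 (0.795 to 1.04) in UMIs per barcode. The ratio of oligodendrocytes to OPCs was 1.05 (0.761 to 1.50) in CPM and 1.20 (0.864 to 1.70) per barcode. Gene by gene and per barcode, the interval of the ratio of oligodendrocytes to NFOs held 1 for 9 of the 10 genes. The exception was Spp1, at 0.720 (0.531 to 0.985), with 17 of the 64 NFO UMIs in a single NFO of 735 UMIs and 0.475 Spp1 UMIs per barcode over the NFOs without it.

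Against uninjured NFOs, injured NFOs had 294 UMIs of the 10 genes against 3, a CPM ratio of 26.2 (8.88 to 128). Spp1 was at least 5.71-fold and Lyz2 at least 4.19-fold higher in CPM, as neither had a UMI in the 44 uninjured NFOs. Only Spp1 passed the minimum of 50 UMIs and it was at least 2-fold higher, as were 13.3% of all 1695 genes past that minimum. It passed through its 64 UMIs in injured NFOs alone and was chosen in these libraries, so nothing is read from this call. In OPCs the sum was 323 against 99.2 CPM, a ratio of 3.26 (1.79 to 6.15), with 38 and 17 UMIs. Without Gpnmb that ratio was 6.56 (2.65 to 19.4).

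Depth moved the CPM of these RNAs and barely their number of UMIs. In injured oligodendrocytes the sum was 2.89 UMIs per barcode (2.61 to 3.20) in the 133 barcodes under 1000 UMIs, 2.33 (1.91 to 2.81) in the 46 from 1000 up to 3000, 2.17 (1.71 to 2.72) in the 35 from 3000 up to 10000, and 2.73 (2.38 to 3.12) in the 79 with 10000 or more. In CPM the same 4 bins fell from 4215 through 1344 and 429 to 111. The deepest bin over the shallowest was 0.945 (0.796 to 1.12) per barcode and 0.0262 (0.0221 to 0.0311) in CPM. Single genes ranged per barcode from 0.281 (0.0708 to 0.817) for Fcer1g, with 4 UMIs in the deepest bin and 24 in the shallowest, to 1.68 (0.808 to 3.51) for Gpnmb. Injured NFOs had 2.86, 2.49, 4.38 and 3.38 UMIs per barcode in the same bins, with 13 and 8 barcodes in the deeper bins.

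Nearly all genes had more UMIs where the barcode was deeper, and the summed RNAs did not. Spearman's rho between UMIs of a gene and UMIs of the barcode over the 293 injured oligodendrocytes had a median of 0.623 over 5969 genes, with 5% of the genes below 0.441. The sum of the 10 RNAs had a rho of 0.0325. The 7 of the 10 genes past the minimum lay between -0.0503 for Tyrobp and 0.0594 for C1qb. These correlations describe 1 library whose barcodes share its suspension and sequencing, for genes chosen with earlier results of these data known. In the uninjured barcodes of all types the bins held 13, 9, 38 and 28 UMIs of the sum, from the shallowest to the deepest. That is 0.0703, 0.0289, 0.117 and 0.203 UMIs per barcode. The deepest bin was above the shallowest there, but 11 of its 28 UMIs were in 1 barcode. Its level without that barcode was not tested.

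**Figure D3:**
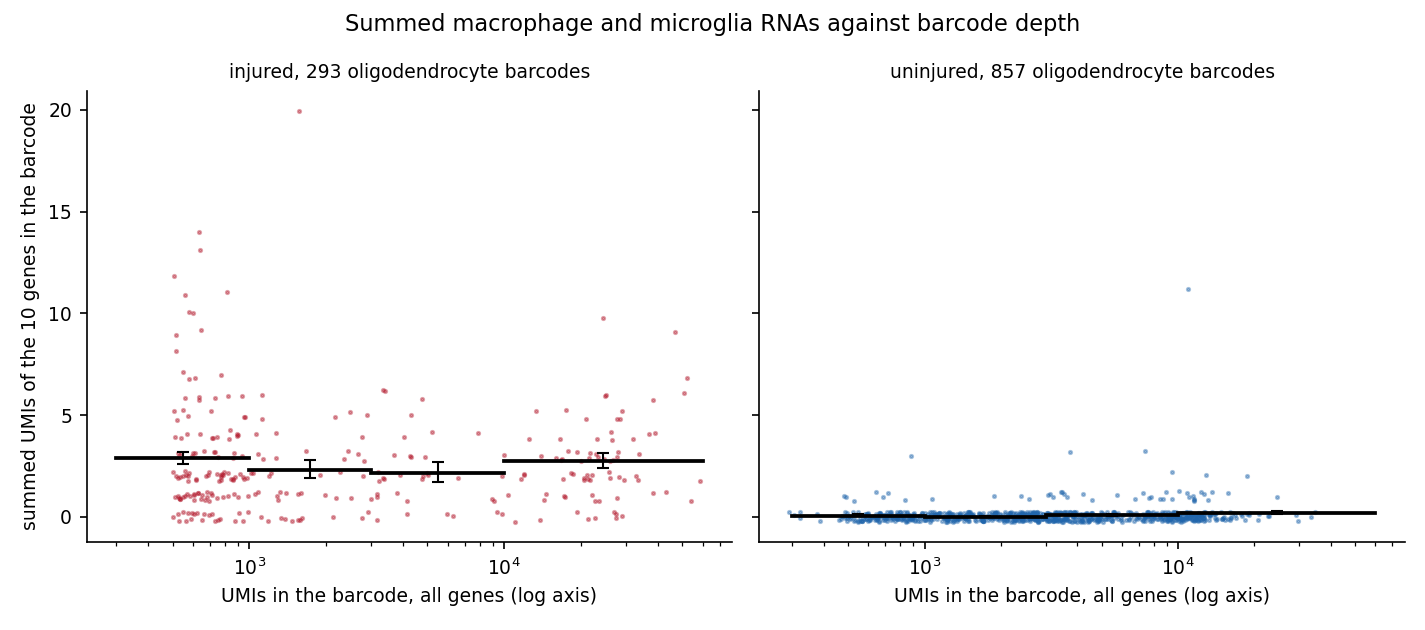
Summed UMIs of the 10 RNAs in each oligodendrocyte barcode (points, moved by at most 0.25 up or down to show overlap) against all UMIs of the barcode on a log axis, with the mean of each depth bin as a black line and its exact 95% counting interval. Bin means in the injured library stay between 2.17 and 2.89 from the shallowest to the deepest barcodes.

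The Malat1-poor barcodes, although far shallower, held about as many UMIs of the 10 genes. They had 2.54 UMIs per barcode (2.28 to 2.83) and the other injured oligodendrocytes 2.79 (2.53 to 3.06), a ratio of 0.912 (0.789 to 1.05). The median gene of the 5969 past the minimum had a ratio of 0.0374 per barcode. All 7 of the 10 genes past that minimum had a ratio of at least 0.5, as did 0.251% of all genes, with a range from 0.708 for Ctss to 1.12 for Spp1. The remaining 3 had 0.498 (0.231 to 1.01) for Gpnmb, 1.27 (0.642 to 2.51) for Fcer1g and 1.56 (0.633 to 3.98) for Cd74. Gpnmb lay just outside the line of 0.5, and every interval of the 10 genes held 1. In CPM the Malat1-poor barcodes stood at 2638 and the others at 205, a ratio of 12.9 (11.1 to 14.8), and all 10 genes were at least 2-fold higher, as were 3.38% of all genes. When the barcodes were parted by depth instead, between oligodendrocytes under 1000 and those with 10000 or more UMIs 0.179% of 5577 genes kept a ratio of at least 0.5 per barcode, 5 of the 5 members past the minimum among them. The 10 genes were chosen with earlier results of these data known, so nothing further is read from these counts.

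**Figure D4:**
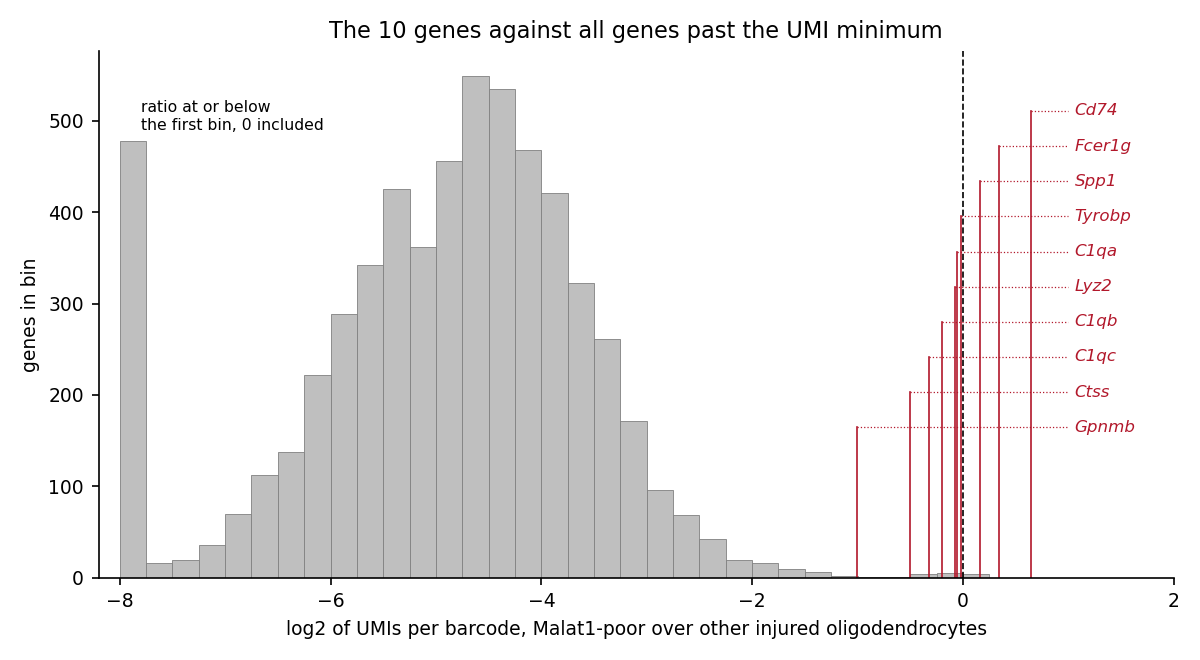
Histogram of log2 ratios of UMIs per barcode, Malat1-poor over other injured oligodendrocytes, for the 5969 genes with at least 50 UMIs in grey, with the 10 RNAs as red lines whose height only spaces their names. The 10 RNAs lie around 0 on the log2 axis, right of nearly all genes.

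Outside the 10 RNAs, 8 genes kept at least 0.5 of their UMIs per barcode in Malat1-poor barcodes, and most of them differed from the 10 in another type. Mbp, which encodes myelin basic protein, had a ratio of 0.868 and 62.1 UMIs per barcode in Malat1-poor barcodes against 2.12 in OPCs, a ratio of 29.3 (21.1 to 41.9). Cenpb, Cyb5r3, Trp53inp2, Trak2 and Oxsr1 were 2.69 to 6.36 times as high in Malat1-poor barcodes as in NFOs, with Cenpb at 6.36 (3.39 to 13.2). The 7 member genes past the minimum lay between 0.654 and 1.22 against NFOs, and each of their intervals held 1. AY036118, a gene model over ribosomal RNA, was the gene most like them, at 0.694 between the Malat1 classes, 1.07 (0.937 to 1.22) against NFOs and 1.53 (1.13 to 2.11) against OPCs. Unlike them it had 4.95 UMIs per barcode in uninjured oligodendrocytes and 4.14 in the Malat1-poor class. Ccnd1, a cell cycle cyclin of OPCs, was far lower than in OPCs, at 0.0139 (0.00842 to 0.0219).

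The make-up of the sum was also much alike among injured oligodendrocytes and NFOs. Lyz2 gave 17.5% of the 338 UMIs in Malat1-poor barcodes, 16.8% of the 446 in the others, 16.0% of the 294 in NFOs and 21.1% of the 38 in OPCs, and the difference between the Malat1 classes was 0.639 percentage points (-4.80 to 6.23). Spp1 gave 19.2%, 15.7%, 21.8% and 15.8% in the same order. In the uninjured oligodendrocytes the make-up was another one, with 7.35% from Lyz2, none from Spp1, 29.4% from Ctss and 17.6% from C1qa, from 68 UMIs. The Ctss share rests on 20 UMIs, of which 9 were in 1 barcode.

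**Figure D5:**
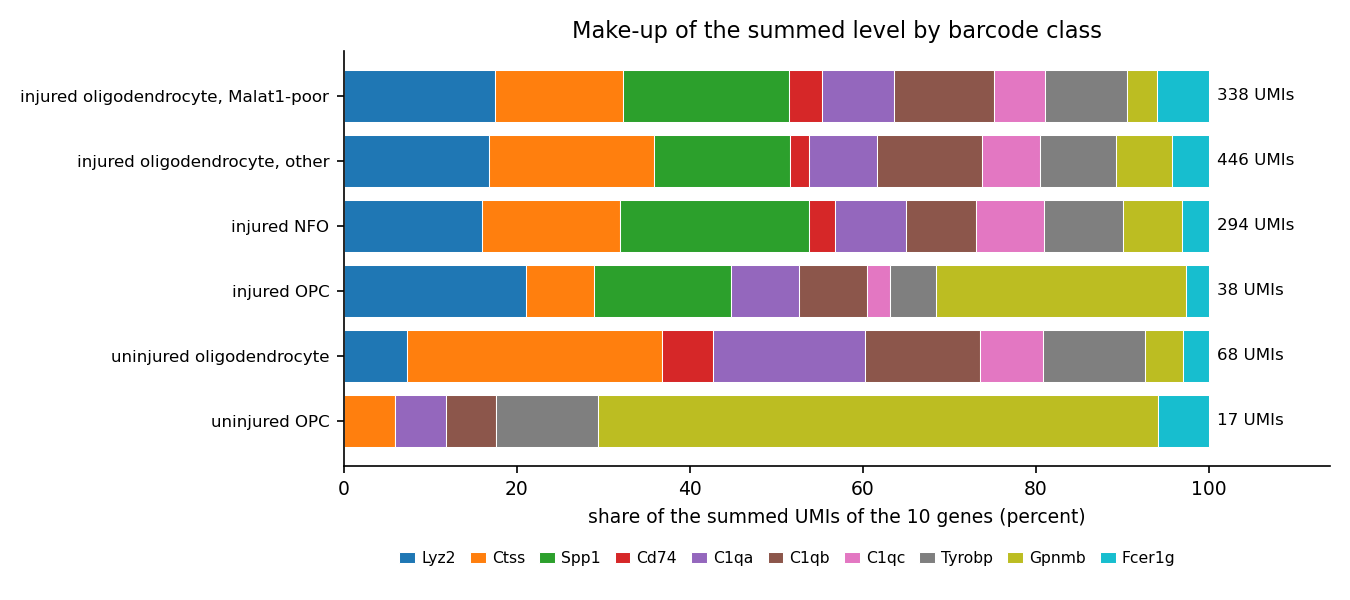
Share of each RNA in the summed UMIs of the 10 (percent, bars adding to 100), by class, with the number of UMIs at the right. Oligodendrocyte classes and NFOs of the injured library have like shares, and Gpnmb makes up 28.9% of the injured and 64.7% of the uninjured OPC sum.

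Gpnmb did not keep to the pattern of the other genes. It was highest in OPCs of both libraries, with 0.647 UMIs per barcode (0.323 to 1.16) in injured OPCs against 0.140 (0.100 to 0.190) in injured oligodendrocytes, a ratio for oligodendrocytes over OPCs of 0.216 (0.109 to 0.467). In the uninjured library the levels were 0.190 (0.0947 to 0.339) and 0.00350 (0.000722 to 0.0102), a ratio of 0.0185 (0.00331 to 0.0699). On the CPM scale, OPCs had 93.5 in the injured and 64.2 in the uninjured library, 11 UMIs each, and that ratio of 1.46 (0.573 to 3.71) held 1. Per barcode the same ratio was 3.41 (1.34 to 8.68), so the call for OPCs depended on the scale. Whether it differs from the ratio in oligodendrocytes was not tested. A single injured OPC held 6 of its 11 UMIs and a single uninjured OPC 5 of 11. Without these barcodes the OPC levels were 0.312 and 0.105 UMIs per barcode. None of the other 9 genes had an interval above 1 on its own for injured oligodendrocytes over OPCs per barcode, and Cd74 had no UMI in the 17 OPCs, which allows a share of up to 17.6%.

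The UMIs were spread over most barcodes and not held by a few. Of the 293 injured oligodendrocytes, 47 had none of the 10, 127 had 1 or 2, 110 had 3 to 9, and 9 had 10 or more. Injured oligodendrocytes held on average 2.02 of the 10 genes and NFOs 2.01, and 5 or more genes were found together in 20 and 4 barcodes. A C1q chain was found in 43.3% of injured oligodendrocytes and in 2.68% of uninjured ones, and all 3 chains in 3 barcodes and in none. No barcode held more than 7 of the 10 genes.

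At least 10 of these UMIs were held by 13 injured barcodes and 1 uninjured one, and 11 of the 13 injured had fewer than 2000 UMIs in all. The highest was the NFO of 735 UMIs with 26, among them 17 of Spp1, which makes 3.54% of its UMIs. Next came an oligodendrocyte of 1567 UMIs with 20, among them 10 of Lyz2, and an NFO of 7163 UMIs with 18, among them 8 of Tyrobp. The uninjured one was an oligodendrocyte of 10936 UMIs with 11, of which 9 were Ctss, and it held 25 UMIs of the immune identity genes described next. In all but 1 of these 14 barcodes immune identity genes were found as well, which 48.5% of all injured and 8.55% of all uninjured barcodes held.

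Other genes of immune cells were listed by group, with earlier results of these data known, and followed the 10 RNAs only in part. Genes of immune identity and receptors, 22 in all, summed to 0.677 UMIs per barcode in Malat1-poor and 0.938 in other injured oligodendrocytes, 0.870 in NFOs and 1.53 in OPCs, against 0.132, 0.0909 and 0.0862 in uninjured oligodendrocytes, NFOs and OPCs. All 22 had a UMI in injured oligodendrocytes, 240 UMIs in all. Trem2, the lipid receptor that signals through Tyrobp, was the highest of them, with 14 UMIs in Malat1-poor and 18 in other barcodes, a ratio of 0.936 (0.431 to 1.99) per barcode, and 3 in uninjured oligodendrocytes. Cd52, a leukocyte surface glycoprotein, had 9 and 13 and no uninjured UMI. Lcp1, which bundles actin in leukocytes, went with depth, with 0 UMIs in Malat1-poor and 28 in other barcodes and 26 in uninjured oligodendrocytes. Among the receptors that define the class, Csf1r had 10 UMIs in the 293 injured and 25 in the 857 uninjured oligodendrocytes. Its CPM ratio was 0.721 (0.309 to 1.55), which held 1. Ptprc had 8 and 1, a CPM ratio of 14.4 (1.93 to 640). In the same list the ratio was 36.0 (5.77 to 1494) for Aif1 and 25.2 (3.84 to 1067) for Cd14, with 1 uninjured UMI each. For Cd68 it was 1.47 (0.745 to 2.88). Only Lcp1 passed the minimum of 50 UMIs between the libraries, with a CPM ratio of 1.94.

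The microglial genes named here did not share the pattern. In the homeostatic list, Sall1, the transcription factor of microglia, had 2 UMIs in Malat1-poor and 37 in other injured oligodendrocytes, a ratio of 0.0650 (0.00759 to 0.252) per barcode, and 175 in uninjured ones. P2ry12, their purine receptor, had 0, 29 and 48 in the same order. P2ry12 lies within Med12l on the opposite strand, and whether its UMIs belong to that gene was not tested. Tmem119, a microglial surface protein, had 1 UMI in injured and 5 in uninjured oligodendrocytes.

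Genes of phagocyte lipid handling and lysosomes that lineage cells also express were of another kind. Of 23 in the tables, 17 passed the minimum and 8 were at least 2-fold higher in injured oligodendrocytes, beside the 5.98% of all genes, with a median CPM ratio of 1.95 beside 1.03. Apoe, the lipid carrier, had a ratio of 49.9, with 9133 UMIs in the other injured oligodendrocytes and 830 in Malat1-poor ones, 0.109 (0.102 to 0.117) per barcode. Fth1, ferritin heavy chain, had a CPM ratio of 1.20 and a ratio of 0.230 (0.225 to 0.235). Ftl1, ferritin light chain, had 2.14 in CPM and 0.158 (0.141 to 0.175) per barcode. None of the 16 genes of the list past the minimum between the Malat1 classes kept 0.5 of its UMIs per barcode, as 0.251% of all genes did, with a median ratio of 0.0695 beside 0.0374.

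Among the lists of other cells, those of Schwann cell and astrocyte genes had the most UMIs in both libraries. Monocyte and granulocyte genes had 24 UMIs in all 410 injured barcodes and 12 in the 959 uninjured, MHC class II genes 38 and 8, border macrophage genes 10 and 2, and T, NK and B cell genes 0 and 1. Haemoglobin genes went the other way, with 30 UMIs in injured and 156 in uninjured barcodes, 10.8 against 35.3 CPM. Astrocyte genes had 429 UMIs in injured and 947 in uninjured barcodes, 155 and 215 CPM, and reached 4.35 UMIs per barcode in injured OPCs. Schwann cell genes had 806 and 1990 UMIs, 291 and 451 CPM, fibroblast and pericyte genes 94 and 86, 33.9 and 19.5 CPM, and endothelial genes 52 and 126, 18.8 and 28.5 CPM. The part of these other cell types in the level of the 10 RNAs was not tested.

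Among the genes whose normalized expression was most like that of the sum over the 293 injured oligodendrocytes were Gm42418 (Pearson's r of 0.590), Apoe (0.370), AY036118 (0.347), Ctsd (0.310), Mbp (0.303), Tpt1 (0.245), Vim (0.225), Cenpb (0.222) and Eef1a1 (0.206), among 3960 genes found in at least 20% of those barcodes. Gm42418, like AY036118, is a gene model over ribosomal RNA. The sum itself had an r of -0.646 with the natural log of barcode UMIs, and the median gene had -0.251, so barcode depth is shared by all of these values. Gm42418 had 61.7 UMIs per barcode in Malat1-poor and 142 in other injured oligodendrocytes, a ratio of 0.435.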

How the data were processed

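Cells of 5 nerves per condition were pooled into 1 library each. Per the submitters' processing notes and the study's methods, reads were processed with bcl2fastq 2.17.1.14 and Cell Ranger 1.3 on mm10. The deposited tables hold normalized expression (NE), which the authors made with Seurat 4.0.3 on a natural log scale, after scaling every barcode to 10000 and adding 1. Low-quality cells had been removed, cell numbers equalised between the libraries and types assigned by the authors, and the tables hold the lineage types alone. A combined table repeats the same barcodes and was not used.

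The exponential of each value minus 1 was divided by the smallest nonzero result of its barcode to give UMIs, and the type and condition were read from the table. Levels are UMIs per barcode, which are not divided by depth, and CPM over the pooled UMIs of a class, which are. Exact 95% intervals were Poisson for levels, binomial for shares and conditional binomial for ratios, and a class at 0 was given a floor of 3 UMIs. Genes needed 50 summed UMIs to be counted. The 10 genes and the lists were chosen with earlier results of these data known. Genes named from a list were those with the most UMIs in injured oligodendrocytes, with Malat1, type markers, defining receptors of a list and the 10 genes most like the sum beside them. Tmem119, Csf1r, Ptprc, Aif1, Cd14 and Cd68, and the genes outside the 10 that stayed level between the Malat1 classes, were named after their values were seen. Doublets were not called, since the tables hold no immune barcodes from which to simulate them. Clec7a is not in the table under that name, and some results of the lists and of the likeness ranking are not reported here. The steps were tested on simulated data. Python 3.11.15, numpy 2.4.6, scipy 1.17.1, pandas 2.3.3 and matplotlib 3.10.9 were used. Alternatives covered filters on barcodes, thinning, scaling and barcodes left out.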

Additional observations from a re-analysis of the deposited data

How the results depend on the processing

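No paired analysis was possible because each condition has 1 library, and for the same reason no library could be left out. Of 49 alternatives to the 7 main values, 37 moved them by less than counting error or 1.5 times. Every ratio of injured over uninjured kept its direction. The CPM ratio of injured over uninjured oligodendrocytes, 20.8, stayed above 1 throughout and was 11.0 with a stricter filter (500 genes or more, mitochondrial UMIs no higher than 10%), 13.3 without Malat1-poor barcodes, 81.6 as the mean of barcode CPM, 86.3 after thinning to 500 UMIs and 94.3 among barcodes under 8000 UMIs. Each of these settings changes which depths weigh most. The ratio of Malat1-poor over other injured oligodendrocytes per barcode, 0.912, became 2.56 when every barcode was thinned to 500 UMIs, which by construction puts it on a scale relative to depth. It thereby passed from below 1 to above 1. The ratio of injured oligodendrocytes over OPCs, 1.20, became 3.21 when thinned, likewise, and 0.848, below 1, without barcodes holding an immune identity UMI. The difference in Lyz2 share between the Malat1 classes, 0.639 percentage points, lay between -1.76 and 5.76. The count of 7 of 7 genes at least 2-fold higher in oligodendrocytes became 3 of 3 under the stricter filter and without barcodes holding an immune identity UMI, and 4 of 4 without Malat1-poor barcodes, as fewer genes passed the minimum. The count of 1 of 1 in NFOs became 8 of 10 with no minimum. A minimum of 200 UMIs gave no value in either type, and in NFOs the stricter filter and both removals of barcodes gave none, because no gene passed. Leaving out Gpnmb was added after the data had been seen. Few UMIs limit the values of uninjured NFOs, with 3, and of OPCs, with 38 injured and 17 uninjured, over few barcodes.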
